A study of Homo sapiens with 12 samples.

Results

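Splicing factor and hnRNP genes were taken as the 76 rows of the array table, of 34595 rows with a value, whose symbol starts with SFRS or SRSF and a digit, SF3A, SF3B, HNRNP, HNRP or SNRPA to SNRPG. The rule uses names and no measured value. The 76 rows stand for 67 genes under current names: 40 symbols matched a current symbol in RefSeq and 36 matched an older spelling. By role they comprise 7 Sm proteins, 4 proteins of the U1 or U2 particle, 9 subunits of the SF3 complex, 12 SR proteins, 10 SR-related proteins, 29 hnRNPs, and 5 copies or pseudogenes of hnRNPs.

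Introns are removed from pre-mRNA by the spliceosome, which is built on small nuclear RNAs wrapped by a ring of Sm proteins. The U1 particle reads the start of an intron and the U2 particle, with the SF3A and SF3B proteins, the branch point near its end. SR proteins bind exons and mostly promote their use, whereas hnRNPs coat the nascent transcript and often hold exons out, so that the balance between both families helps to decide which exons an mRNA keeps.

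Gene expression was measured on Illumina HT-12 v3 BeadChips in CD133+ and CD133- cells sorted from KATO-III, SNU-216 and SNU-601, established gastric cancer cell lines grown in RPMI1640 with calf serum. CD133, the product of PROM1, is a membrane glycoprotein used as a stem cell marker, and all cells were stained with a phycoerythrin-labelled antibody to it. The gates were set at the ends of the staining, at 10% for CD133+ and 6% for CD133-, so that cells of intermediate staining are in neither fraction. Each of the 6 populations (KATO-III CD133+, KATO-III CD133-, SNU-216 CD133+, SNU-216 CD133-, SNU-601 CD133+ and SNU-601 CD133-) had 2 arrays, which makes 12 arrays in all, 6 from each fraction. The labels name no treatment, knockdown or genetic change. The sources do not say whether the 2 arrays of a population come from separate sorts, so the p-values below measure the spread between arrays, which may be technical. Those over all lines also take in how far the change differed between the lines. In such bulk samples, fewer cells of a type and less RNA per cell cannot be told apart. The labels' SNU-216 appears as SNU201 in the series' own description, and plots of the study's sorts name SNU-638, a name that none of the arrays bears. The stain labels of those plots name SNU-638, SNU-216 and KATO-III, and not SNU-601. The labels of the arrays were followed, and which cells the plots show was not tested.

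The epithelial markers EPCAM, CDH1, KRT8, KRT18 and KRT19 lay above background on all 12 arrays. Of the markers of other cell types, PTPRC, CD3E, PECAM1, COL3A1 and DCN lay above it on 0 arrays, COL1A2 on 1 and COL1A1 on 7, with the highest COL1A1 means in SNU-601 (174 in CD133+ and 167 in CD133- cells). PROM1, the sorted marker, averaged 9180 against 4275 in KATO-III, 9023 against 2225 in SNU-216 and 4777 against 1319.9 in SNU-601, CD133+ first.

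SNRPD1 and SNRPD3 were called higher in CD133+ cells over all lines, calls lost in other fits given below. The promoter sequences used held none for SNRPD1. The promoters of HNRNPF and HNRNPH3, whose rows rose together in KATO-III, and of SNRPD3 are shown as stretches from which these genes are transcribed. Each is the 250 bases before the first RefSeq start (GRCh38.p14), 5′ to 3′ on the gene's strand, and capitals mark matches to 5 short motifs on either strand: the CCAAT box (spelled CCAAT), the GC box (GGGCGG), the ETS core (CCGGAAG), the E-box (CACGTG, the same on both strands) and the TATA box (TATAAA). None of these motifs contains another. HNRNPF lies at chr10:43408858-43409107 (minus strand), HNRNPH3 at chr10:68331443-68331692 (plus strand) and SNRPD3 at chr22:24555400-24555649 (plus strand).
HNRNPF: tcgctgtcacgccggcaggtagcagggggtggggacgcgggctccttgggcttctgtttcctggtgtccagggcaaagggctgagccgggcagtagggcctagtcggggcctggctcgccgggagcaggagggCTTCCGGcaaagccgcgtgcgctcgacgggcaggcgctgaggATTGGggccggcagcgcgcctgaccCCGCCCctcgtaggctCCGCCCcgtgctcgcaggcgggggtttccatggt
HNRNPH3: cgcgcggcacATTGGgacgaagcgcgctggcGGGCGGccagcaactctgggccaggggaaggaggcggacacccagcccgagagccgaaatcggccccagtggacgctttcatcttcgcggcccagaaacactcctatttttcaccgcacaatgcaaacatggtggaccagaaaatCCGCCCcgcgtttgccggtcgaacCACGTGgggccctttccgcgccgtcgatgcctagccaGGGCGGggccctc
SNRPD3: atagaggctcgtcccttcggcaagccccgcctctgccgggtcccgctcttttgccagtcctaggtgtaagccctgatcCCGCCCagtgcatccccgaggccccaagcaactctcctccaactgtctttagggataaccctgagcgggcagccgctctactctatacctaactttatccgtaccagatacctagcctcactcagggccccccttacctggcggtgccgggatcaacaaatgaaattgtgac
HNRNPF held 1 CCAAT, 2 GC box and 1 ETS core match, HNRNPH3 held 1 CCAAT, 3 GC box and 1 E-box match, and SNRPD3 held 1 GC box match. The genes have further RefSeq starts with other matches: the second start of HNRNPF held no ETS core, the other starts of HNRNPH3 no CCAAT and no E-box, and the second start of SNRPD3 no match to any of the motifs. HNRNPH1, whose older-spelled row had the largest change in KATO-III, has 4 starts, of which 3 held no match and 1 held 1 GC box. RefSeq gave 81 promoters for 58 of the genes. The ETS core stood in 27 of the 81 (33.3%), beside 8.52% of all 35116 promoters of that length, and the E-box in 12 (14.8%), beside 6.34%. The other shares were 51.9% beside 42.6% for the GC box, 34.6% beside 32.0% for CCAAT and 9.88% beside 10.7% for TATAAA. These are matches of letters, and no binding was measured.

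Intensities are the deposited linear values, and a change is the mean log2 of CD133+ minus that of CD133- arrays, given ± its standard error, after values under a floor of 32.7 were set to the floor. Of the 76 rows, 73 passed the floor on 2 or more arrays and were tested, and 71 passed it on all 12. SNRPE was between -33.6 and -0.843 on every array, and HNRNPCL1 and SFRS13B passed the floor on 1 array at most. The median standard deviation between the arrays of a population was 0.08 for these rows on the log2 scale and 0.13 over all tested genes, so shares are set beside all 20147 tested genes and beside the 11674 that lay above the floor on all arrays, called the brighter genes.

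In KATO-III, 28 of the 73 rows were higher and 12 lower in CD133+ cells (limma, Benjamini-Hochberg adjusted p of 0.05). That is 38.4% higher and 16.4% lower, beside 18.7% and 20.6% of all tested genes and 24% and 27.4% of the brighter genes. In SNU-216, 15 rows (20.5%) were higher and 5 (6.85%) lower, beside 14.6% and 14% of all tested genes and 20.1% and 20% of the brighter ones. In SNU-601, 5 rows (6.85%) were higher and 8 (11.0%) lower, beside 8.59% and 7.78%, and 12% and 10.4%. The share higher in KATO-III thus stood above both backgrounds, and the shares lower in KATO-III and in SNU-216 below both. The share higher in SNU-216 was near that of the brighter genes. In SNU-601 the share higher was below both backgrounds, and the share lower was near that of the brighter genes. The SNU-601 counts depended on single arrays: the higher rows came to 2 without CD133+ replicate 1 and 3 without CD133- replicate 1, and the lower ones to 5, 4 and 5 without CD133+ replicate 1, CD133+ replicate 2 and CD133- replicate 1.

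**Figure D1:**
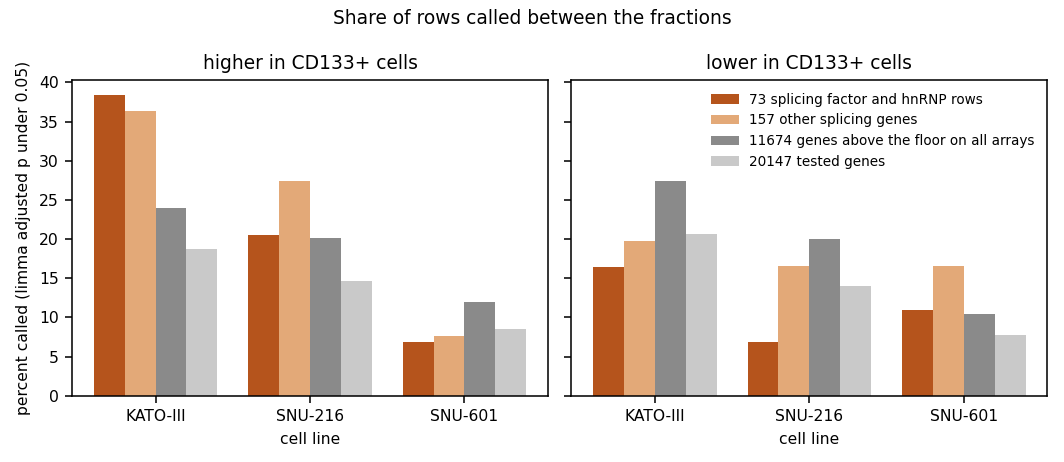
Percent of rows called higher (left) or lower (right) in CD133+ cells by limma in each cell line, for the 73 tested splicing factor and hnRNP rows, 157 rows of other splicing genes and 2 backgrounds. The splicing factor and hnRNP bar stands at 38.4% for higher rows in KATO-III, beside 18.7% of all tested genes, and at 6.85% for lower rows in SNU-216, beside 14%.

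The median change of the rows was 0.13 in KATO-III, 0.06 in SNU-216 and -0.01 in SNU-601. Medians of all tested genes were 0.00 in each line, and those of the brighter genes -0.023, -0.008 and -0.005 in the same order. No row was called in the same direction in all 3 lines, where 0.63% of tested genes were higher and 0.427% lower in each. At least 1 line called 50 rows (68.5%, beside 56.2% of tested genes and 70.5% of the brighter ones), and 23 rows were called in none. KATO-III and SNU-216 shared 8 higher rows and 1 lower row and had 5 in opposite directions. KATO-III and SNU-601 shared 4 and had 4 in opposite directions, and SNU-216 and SNU-601 shared 0 and had 5 in opposite directions. Matching counts over all tested genes were not made for the pairs, so these pair counts have no background here. In all, 10 rows were called in opposite directions in at least 2 lines (13.7%, beside 10.9% and 17.1%). The test of the difference itself, limma's F-test of line by fraction, called 44 rows (60.3%), beside 44.4% of all tested genes and 58.5% of the brighter ones.

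**Figure D2:**
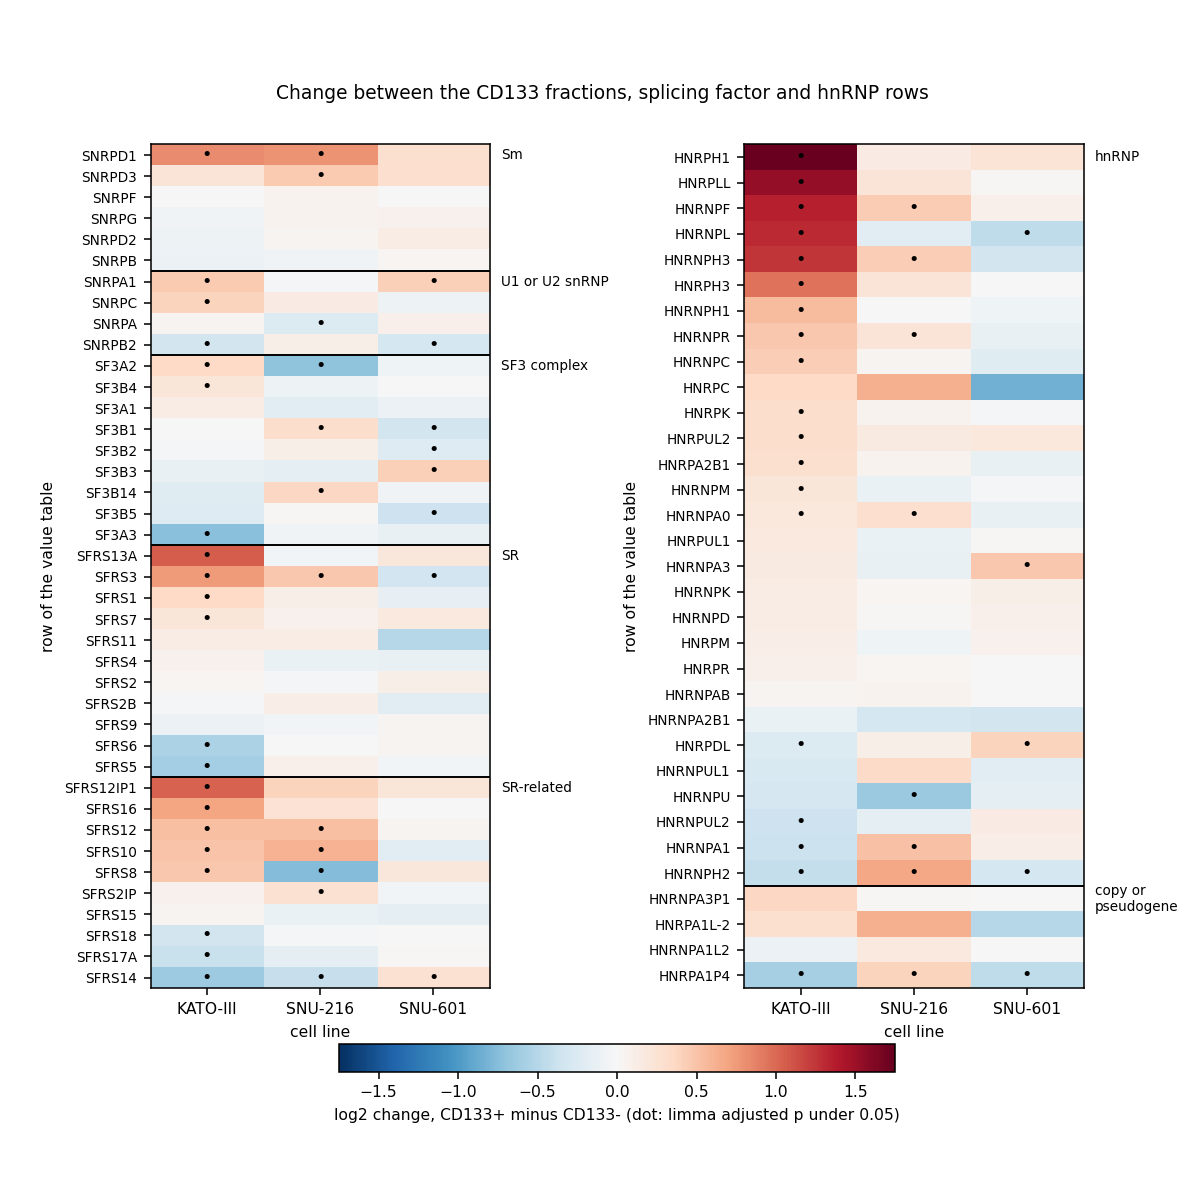
Log2 change between CD133+ and CD133- cells (colour) of the 73 tested rows in each cell line, ordered within each protein group by the change in KATO-III, with a dot where limma's adjusted p was under 0.05. The darkest cells are the hnRNP rows of KATO-III, led by HNRPH1 at 1.73, and 10 rows have dots of opposite colour in different lines.

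Over all lines, in a limma fit with line as a block, 2 of the 73 rows were called higher and 0 lower (2.74% higher, beside 2.62% of tested genes and 3.97% of the brighter ones, and none lower, beside 2.11% and 2.82%). Without adjustment, 15 of the 73 rows had a limma p under 0.05 and were higher and 6 were lower. Of the 20147 tested genes, 2312 were higher and 2629 lower by the same measure. Both called rows are Sm proteins, SNRPD1 and SNRPD3, which sit in the ring around the spliceosomal RNAs.

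SNRPD1 read 913 and 1073 on the CD133+ arrays and 549 and 570.2 on the CD133- arrays in KATO-III. In SNU-216 it read 1017 and 981 on the CD133+ arrays and 597 and 559.6 on the CD133- arrays, and in SNU-601 615 and 644 on the CD133+ arrays and 439 and 611 on the CD133- arrays. The fractions did not overlap in any line, although the higher CD133- array of SNU-601 almost reached the CD133+ arrays. The change over all lines was 0.63 ± 0.11 (limma adjusted p = 0.0181). Within lines it was 0.82 in KATO-III (limma adjusted p = 0.00147), 0.79 in SNU-216 (0.00282) and 0.28 in SNU-601 (0.231). SNRPD1 was also the 1 row with a signal-to-noise ratio past 1 (1.24), the measure by which the study chose its own genes on these arrays, so its direction is not independent evidence.

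SNRPD3 read 953 and 989 on the CD133+ arrays and 755 and 904 on the CD133- arrays in KATO-III, 1304 and 1327 on the CD133+ arrays and 894 and 1023 on the CD133- arrays in SNU-216 and 2025 and 2171 on the CD133+ arrays and 1647 and 1784 on the CD133- arrays in SNU-601. Its fractions did not overlap in any line either, and its change over all lines was 0.33 ± 0.07 (limma adjusted p = 0.0321). Of the single lines, SNU-216 was called, at 0.46 (limma adjusted p = 0.0063). Both calls over all lines were lost when the 2 arrays of a population were averaged first, with a limma adjusted p of 0.796 for each, and when the population was taken as a random block (0.231 for SNRPD1 and 0.321 for SNRPD3). The call of SNRPD3 was also lost without any of 9 of the 12 arrays, with changes between 0.29 and 0.35. With averaged populations limma called 0 of 20147 genes over all lines, while 470 had an unadjusted p under 0.05 and were higher and 522 were lower. Of the 73 rows, 1 was then higher and 0 lower without adjustment.

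The other tested Sm rows were called in no line. SNRPB, which gives the B proteins of the ring, changed by -0.04 over all lines (95% interval -0.12 to 0.04), and was between 8794 and 15161 on the arrays. SNRPD2, SNRPF and SNRPG had changes between -0.08 and 0.12.

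**Figure D3:**
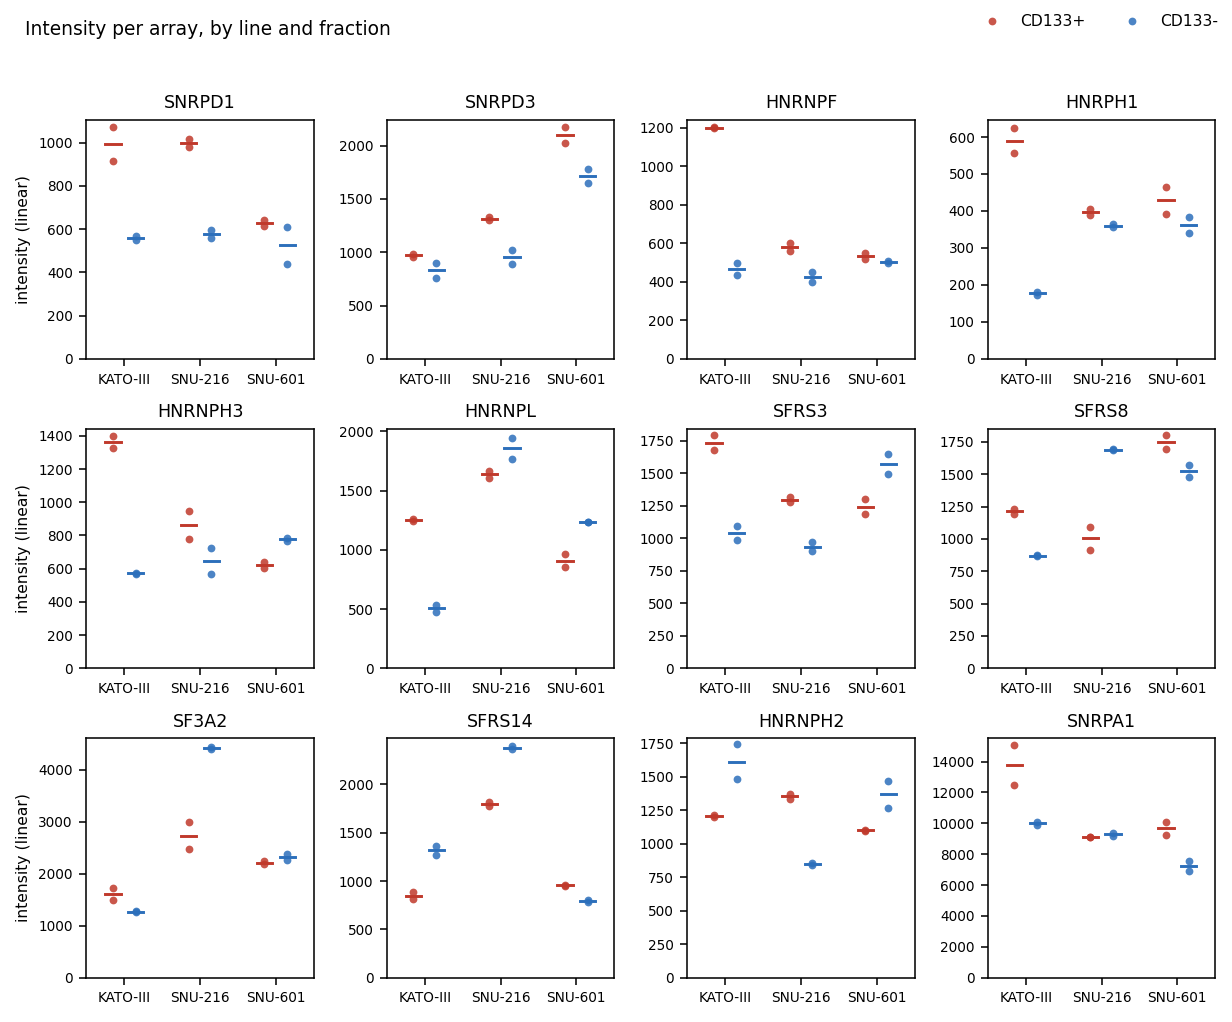
Linear intensity of 12 rows on each array by cell line, CD133+ in red and CD133- in blue, with a bar at the mean of the 2 arrays. SNRPD1 and SNRPD3 are higher in CD133+ cells in each line, HNRNPF, HNRPH1 and HNRNPH3 stand apart in KATO-III, and SFRS3, SFRS8, SFRS14, HNRNPH2 and HNRNPL change sides between lines.

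Among the proteins of the U1 and U2 particles, SNRPA1, the U2 A′ protein, read 15102 and 12463 on the CD133+ arrays and 10087 and 9912 on the CD133- arrays in KATO-III, a change of 0.46 ± 0.09 (limma adjusted p = 0.0026). In SNU-601 it read 10075 and 9273 on the CD133+ arrays and 7564 and 6939.5 on the CD133- arrays, a change of 0.42 ± 0.09 (limma adjusted p = 0.0116), and the call was lost without CD133+ replicate 1 (0.36) or CD133- replicate 2 (0.35). In SNU-216, by contrast, its 4 arrays lay between 9097 and 9392, a change of -0.03. Its partner on U2, SNRPB2, moved the other way, at -0.32 in KATO-III (limma adjusted p = 0.000506) and -0.31 in SNU-601 (0.00228). Of the U1 proteins, SNRPC was higher in KATO-III (0.39, limma adjusted p = 0.000351) and SNRPA lower in SNU-216 (-0.24, 0.0266).

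The 9 SF3 subunits split by line. KATO-III had SF3A2 and SF3B4 higher and SF3A3 lower, SNU-216 had SF3B1 and SF3B14 higher and SF3A2 lower, and SNU-601 had SF3B3 higher and SF3B1, SF3B2 and SF3B5 lower.

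SF3A2, which helps to tether U2 to the intron, read 2472 and 2997 on the CD133+ arrays and 4411 and 4447 on the CD133- arrays in SNU-216. These groups were far apart, a change of -0.70 ± 0.09 (limma adjusted p = 0.000586), while in KATO-III SF3A2 read 1502 and 1729.9 on the CD133+ arrays and 1256 and 1279.7 on the CD133- arrays and changed by 0.35 ± 0.09 in the other direction (limma adjusted p = 0.0154). SF3A3, another subunit of the same trimer, read 3359 and 3374 on the CD133+ arrays and 5741 and 5489.9 on the CD133- arrays in KATO-III, a change of -0.74 ± 0.07 (limma adjusted p = 4.4e-05).

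SF3B1, the large subunit that grips the branch point and is often mutated in blood cancers, read 1812 and 1888 on the CD133+ arrays and 1507 and 1486 on the CD133- arrays in SNU-216 and 1654 and 1706 on the CD133+ arrays and 2017 and 2169.5 on the CD133- arrays in SNU-601. The changes had opposite signs, 0.31 ± 0.05 (limma adjusted p = 0.00129) and -0.32 ± 0.05 (0.00252). In KATO-III the 4 arrays lay between 2034 and 2064, with a change of 0.01 (95% interval -0.09 to 0.12). SF3B3, a scaffold of the same complex, read 950.0 and 979.6 on the CD133+ arrays and 665 and 791 on the CD133- arrays in SNU-601. The change was 0.41 ± 0.11 (limma adjusted p = 0.0311), and this call did not survive leaving out CD133+ replicate 1 (0.43), CD133+ replicate 2 (0.39) or CD133- replicate 1 (0.29).

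Of the 11 tested SR proteins, SFRS13A, SFRS3, SFRS1 and SFRS7 were higher and SFRS5 and SFRS6 lower in KATO-III. SFRS3 was the only SR row called in SNU-216 or in SNU-601. SFRS3 (now SRSF3), the smallest of the family and a shuttling protein that also takes part in mRNA export, read 1796 and 1678 on the CD133+ arrays and 1098 and 985 on the CD133- arrays in KATO-III. It read 1317 and 1279 on the CD133+ arrays and 904 and 968 on the CD133- arrays in SNU-216 and 1301 and 1186 on the CD133+ arrays and 1649.6 and 1493 on the CD133- arrays in SNU-601. The fractions did not overlap in any line, with CD133+ above in KATO-III (0.74, limma adjusted p = 0.000106) and SNU-216 (0.47, 0.00212) and below in SNU-601 (-0.34, 0.0203). The SNU-601 call was lost without CD133+ replicate 2 or CD133- replicate 1, each at -0.27. The difference between the lines had a limma adjusted p of 0.000218.

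SFRS1 (SRSF1), the founding SR protein and known as an oncogene when overexpressed, read 10411 and 10946 on the CD133+ arrays and 8875 and 7879 on the CD133- arrays in KATO-III. That was a change of 0.35 ± 0.07 (limma adjusted p = 0.00398), while SNU-216 and SNU-601 changed by 0.10 and -0.14 and were not called. SFRS2 (SRSF2) was bright on every array, from 10296 to 15047, and changed by 0.03 over all lines (95% interval -0.05 to 0.12). SFRS13A (SRSF10), a splicing repressor once dephosphorylated, showed the SR group's largest change, 767 and 688 against 360.0 and 338 in KATO-III or 1.06 ± 0.10 (limma adjusted p = 6.78e-05). SFRS5 and SFRS6 fell there by 0.59 and 0.56 on the log2 scale (limma adjusted p = 5.23e-05 and 7.97e-05).

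The 10 SR-related rows had 5 higher and 3 lower in KATO-III, 3 higher and 2 lower in SNU-216, and 1 higher and 0 lower in SNU-601. The brighter genes stood at 24% higher and 27.4% lower, 20.1% and 20%, and 12% and 10.4% in the same lines. SFRS12IP1, SFRS16, SFRS12, SFRS10 and SFRS8 were higher in KATO-III and SFRS18, SFRS17A and SFRS14 lower. SFRS10 (TRA2B), an exon enhancer protein, and SFRS12 (SREK1) were higher in SNU-216 too, by 0.60 and 0.53 (limma adjusted p = 0.00103 and 0.0483), together with SFRS2IP (0.26, 0.00964).

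SFRS8 (SFSWAP), a homologue of a fly protein that controls its own splicing, read 1094 and 916 on the CD133+ arrays and 1693 and 1685 on the CD133- arrays in SNU-216, the most marked fall of any of the rows in that line (-0.75 ± 0.08, limma adjusted p = 0.000177). In KATO-III it read 1189 and 1235 on the CD133+ arrays and 874 and 869 on the CD133- arrays, a rise of 0.48 ± 0.08 (limma adjusted p = 0.00129). The groups were separate in both lines, on opposite sides, and the difference between lines had a limma adjusted p of 0.000100. SFRS14 (SUGP2), which carries SURP and G-patch domains, read 816 and 884 on the CD133+ arrays and 1271 and 1366 on the CD133- arrays in KATO-III and 1776 and 1821 on the CD133+ arrays and 2363 and 2397 on the CD133- arrays in SNU-216. Those were falls of 0.63 and 0.40 on the log2 scale (limma adjusted p = 3.05e-05 and 0.000659), whereas in SNU-601 SFRS14 read 957 and 952 on the CD133+ arrays and 786 and 802 on the CD133- arrays and rose by 0.27 (0.0111), a call lost without CD133+ replicate 1 (0.26) or CD133- replicate 1 (0.25).

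In KATO-III the largest changes were those of hnRNPs. Of 29 rows, 14 were higher and 4 lower in KATO-III, 6 higher and 1 lower in SNU-216, and 2 higher and 2 lower in SNU-601. Of the brighter genes, 24% were higher and 27.4% lower in KATO-III, 20.1% and 20% in SNU-216, and 12% and 10.4% in SNU-601. The hnRNP H and F proteins bind runs of G and act on nearby exons and polyadenylation sites. Their 6 rows, which stand for 4 genes and were grouped after the values were seen, had a median change of 1.10 in KATO-III, with 5 higher and HNRNPH2 lower, of 0.33 in SNU-216 and of -0.04 in SNU-601. No test of the group was made, and HNRPLL and HNRNPL, outside it, changed as much in KATO-III.

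HNRNPF read 1201 and 1203 on the CD133+ arrays and 501 and 437 on the CD133- arrays in KATO-III, a change of 1.36 ± 0.08 (limma adjusted p = 5.7e-06). In SNU-216 it read 563 and 604 on the CD133+ arrays and 402 and 453 on the CD133- arrays, a change of 0.45 ± 0.08 (limma adjusted p = 0.00404), and in SNU-601 553 and 522 on the CD133+ arrays and 508 and 499 on the CD133- arrays, a change of 0.09 that was not called. The CD133+ arrays were above in each line, by very different amounts (limma adjusted p of the difference = 0.000145). HNRNPH3 read 1399 and 1324 on the CD133+ arrays and 576 and 566 on the CD133- arrays in KATO-III and changed by 1.25 ± 0.12 (limma adjusted p = 5.56e-05). In SNU-216 it changed by 0.43 ± 0.12 (limma adjusted p = 0.0259) and in SNU-601 its CD133+ arrays, 603 and 642, were below its CD133- arrays, 768 and 787, a difference that was not called.

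HNRPH1, the older spelling of HNRNPH1, read 624 and 556 on the CD133+ arrays and 181 and 174 on the CD133- arrays in KATO-III, the largest change of any row in any line (1.73 ± 0.10, limma adjusted p = 4.53e-06). The brighter row of the same gene, spelled HNRNPH1 and between 3609 and 8139 on the arrays, changed by 0.55 in KATO-III. HNRNPH2, the X-linked close relative of HNRNPH1, moved the other way in KATO-III. It read 1212 and 1197 on the CD133+ arrays and 1482 and 1743 on the CD133- arrays in KATO-III, 1338 and 1376 on the CD133+ arrays and 842 and 855 on the CD133- arrays in SNU-216 and 1094 and 1105 on the CD133+ arrays and 1271 and 1470.3 on the CD133- arrays in SNU-601. So CD133+ cells were lower in KATO-III (-0.42, limma adjusted p = 0.00428), higher in SNU-216 (0.68, 0.000471) and lower in SNU-601 (-0.31, 0.0366), the last a call lost without any 1 of 9 arrays, at -0.21 to -0.32. The probes behind these rows are not given in the sources used here, and cross-hybridization between the close H1 and H2 transcripts was not tested.

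HNRNPL and its relative HNRPLL bind CA-rich RNA and are known for the exon choice of the leukocyte gene CD45. HNRNPL read 1262 and 1245 on the CD133+ arrays and 479 and 538 on the CD133- arrays in KATO-III, a rise of 1.30 ± 0.08 (limma adjusted p = 5.02e-06). In SNU-601 it read 853 and 964 on the CD133+ arrays and 1235 and 1236 on the CD133- arrays, a fall of 0.45 on the log2 scale (limma adjusted p = 0.00606), and in SNU-216 1669.8 and 1603 on the CD133+ arrays and 1765 and 1947 on the CD133- arrays, which was not called. Its difference between lines had the smallest p of the 73 rows (limma adjusted p = 1.71e-05). HNRPLL read 566 and 399 on the CD133+ arrays and 177 and 151.3 on the CD133- arrays in KATO-III, with the CD133+ arrays well apart from each other, and changed by 1.54 ± 0.20 (limma adjusted p = 0.000365). It changed by 0.22 in SNU-216 and 0.03 in SNU-601, neither called.

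In SNU-601, HNRNPA3, a relative of hnRNP A1 and A2, read 1679 and 1501 on the CD133+ arrays and 1224 and 1075 on the CD133- arrays, a change of 0.47 ± 0.08 (limma adjusted p = 0.00488). It was the largest called rise among the rows in that line, followed among hnRNPs by HNRPDL at 0.39 (0.00467), which was lower in KATO-III (-0.23, limma adjusted p = 0.0206). HNRNPU, a nuclear scaffold protein, read 237 and 205 on the CD133+ arrays and 361 and 329 on the CD133- arrays in SNU-216, a fall of 0.65 ± 0.12 on the log2 scale (limma adjusted p = 0.00413). Its CD133- arrays were above its CD133+ arrays in the other lines too, with -0.30 in KATO-III and -0.17 in SNU-601, neither called.

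HNRNPA1, a classic repressor of exons, read 354 and 319.6 on the CD133+ arrays and 443 and 432 on the CD133- arrays in KATO-III and 1379 and 1475 on the CD133+ arrays and 999 and 1007 on the CD133- arrays in SNU-216. The fractions were separate and opposite, at -0.38 ± 0.07 (limma adjusted p = 0.00203) and 0.51 ± 0.07 (0.000657). A row named as a pseudogene of it, HNRPA1P4, was lower in KATO-III (-0.58, limma adjusted p = 0.000513), higher in SNU-216 (0.39, 0.00629) and lower in SNU-601 (-0.44, 0.00721), where it read 3706 and 3663 on the CD133+ arrays and 5181 and 4829 on the CD133- arrays. The SNU-601 call was lost without CD133- replicate 1, at -0.39. A probe for a pseudogene may read the parent transcript, so the source of these values is uncertain.

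There were 9 genes with 2 rows each, 1 under the HNRNP and 1 under the older HNRP spelling: A2B1, C, H1, H3, K, M, R, UL1 and UL2. The 2 rows hold different values, and the probes behind them are not given in the sources used here. In KATO-III both rows were called for 3 genes, with the same sign for HNRNPH1 (0.55 and 1.73) and HNRNPH3 (1.25 and 0.95) and opposite signs for HNRNPUL2 (-0.36 and 0.30). For 5 genes 1 row of the pair was called. In SNU-216 no pair had both rows called and 2 had 1, and in SNU-601 none was called.

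HNRNPA2B1, which sorts microRNAs and represses exons, read 1618 and 1375 on the CD133+ arrays and 1624 and 1621 on the CD133- arrays in KATO-III under the newer spelling (-0.12, not called). Under the older one it read 12694 and 11871 on the CD133+ arrays and 10570.4 and 9584 on the CD133- arrays, a change of 0.29 (limma adjusted p = 0.00731) that was lost without CD133+ replicate 1 (0.24) or CD133- replicate 2 (0.22). HNRNPC, which binds U tracts, changed by 0.43 in KATO-III (limma adjusted p = 0.00699), lost without CD133- replicate 1 (0.32). Its other row, HNRPC, was called in no line, with array values from 260.4 to 647 and a CD133- pair in SNU-601 of 362 and 647. Counting 1 row per gene and leaving out copies and pseudogenes left 60 rows, of which 23 were higher and 11 lower in KATO-III, 14 and 5 in SNU-216, 5 and 7 in SNU-601, and 2 and 0 over all lines.

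**Figure D4:**
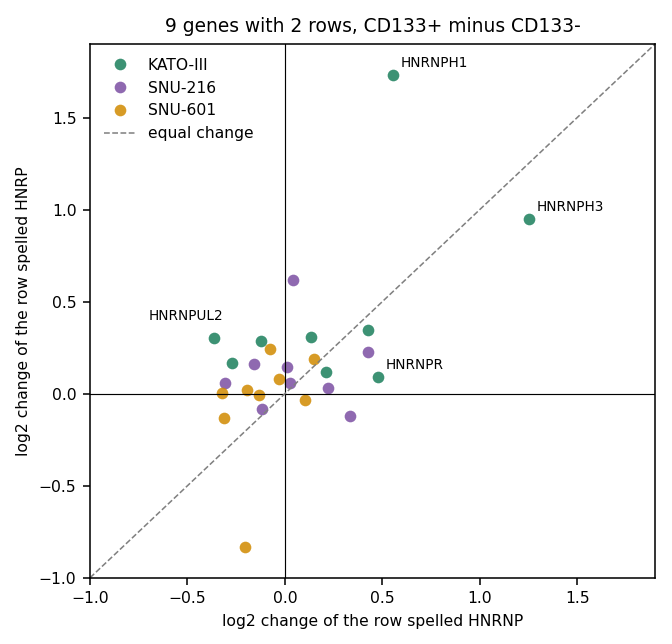
Log2 change between CD133+ and CD133- cells of the 9 genes with 2 rows, the row spelled HNRNP on the horizontal and the row spelled HNRP on the vertical axis, 1 point per gene and cell line, with a dashed line of equal change. HNRNPH1 lies at 0.55 and 1.73 in KATO-III, far from the dashed line, and HNRNPUL2 has opposite signs.

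Most rows also differed between the cell lines when CD133+ and CD133- arrays were averaged. Such a difference need not hold in each fraction. HNRNPF was higher in KATO-III than in SNU-601 by 0.53 (limma adjusted p = 4.66e-05). Its CD133- means, however, were 469 in KATO-III and 503 in SNU-601. The F-test over the 3 lines called 65 of the 73 rows (89.0%), beside 72.3% of all tested genes and 85.2% of the brighter ones. The 8 rows not called were SNRPD2, SNRPG, SFRS9, SFRS11, SFRS12, HNRNPD, HNRPC and HNRPM. By pairs, 47 rows differed between KATO-III and SNU-216 (beside 62% of tested genes), 53 between KATO-III and SNU-601 (58.6%) and 58 between SNU-216 and SNU-601 (56.5%).

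HNRNPA1 was highest in SNU-216, at 1.70 above SNU-601 on the log2 scale (limma adjusted p = 1.75e-09), while KATO-III minus SNU-601 was 0.06 (95% interval -0.05 to 0.17). In SNU-601 it read 372 and 395 on the CD133+ arrays and 353 and 354 on the CD133- arrays, about the KATO-III level. The pseudogene rows HNRPA1P4 and HNRPA1L-2 were instead higher in KATO-III than in SNU-601, by 0.93 and 1.79 (limma adjusted p = 6.5e-07 and 5.21e-06). Which lines stood alike thus depended on the row read. HNRNPA3 was ordered SNU-216, SNU-601 and KATO-III, with a difference of the ends of -1.68 for KATO-III minus SNU-216 (limma adjusted p = 5.52e-09) and every step called. It read 2641 and 2697 on the CD133+ arrays and 2924 and 2900.2 on the CD133- arrays in SNU-216 and 964 and 871 on the CD133+ arrays and 805 and 838 on the CD133- arrays in KATO-III. HNRNPU was highest in SNU-601, with 876 and 890.2 on the CD133+ arrays and 973 and 1021 on the CD133- arrays. KATO-III was below it, with a difference of -1.80 (limma adjusted p = 1.14e-07), with 251 and 235 on the CD133+ arrays and 339 and 265 on the CD133- arrays, and KATO-III minus SNU-216 was -0.03 (95% interval -0.23 to 0.17).

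SFRS12IP1 (SREK1IP1), a partner of the SR-related protein SREK1, showed the widest spread between lines. It read 337 and 275 on the CD133+ arrays and 255 and 269 on the CD133- arrays in SNU-601, 152 and 120.4 on the CD133+ arrays and 55.2 and 79.7 on the CD133- arrays in KATO-III and 84.5 and 67.4 on the CD133+ arrays and 67.6 and 49.2 on the CD133- arrays in SNU-216, nearest to the floor. SNU-216 was below SNU-601, with a difference of -2.10 (limma adjusted p = 2.98e-06). HNRPA1L-2, a pseudogene row of HNRNPA1 (now HNRNPA1P10) and uncertain for the same reason, was higher in SNU-216 than in SNU-601 by 2.04 (limma adjusted p = 1.56e-06), with 1165 and 786 on the CD133+ arrays and 603 and 640.3 on the CD133- arrays in SNU-216 against 179 and 138 on the CD133+ arrays and 219 and 225 on the CD133- arrays in SNU-601.

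**Figure D5:**
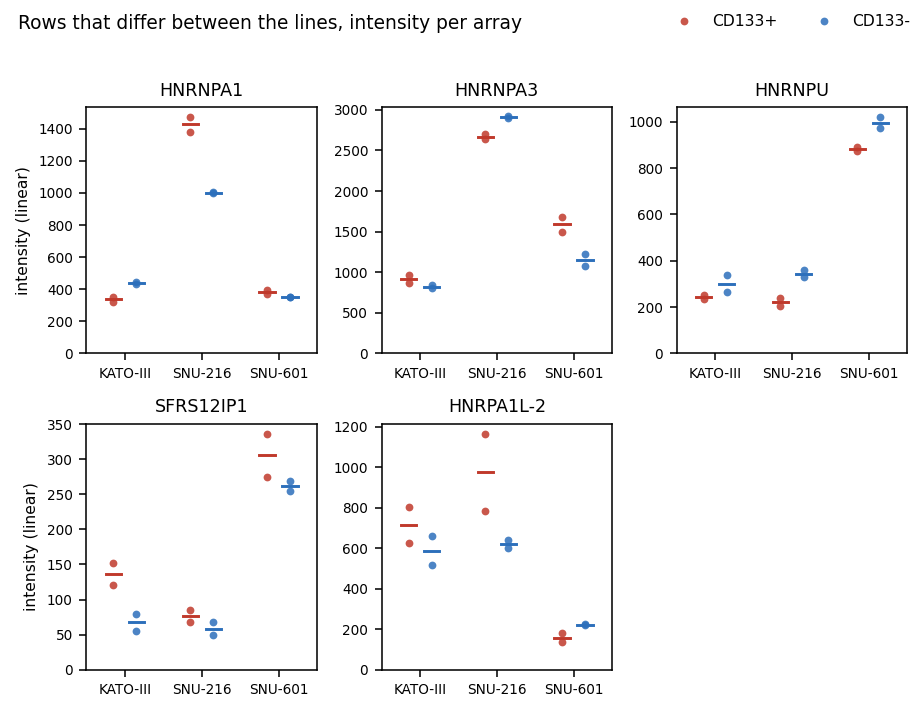
Linear intensity on each array of the 5 rows with the largest differences between 2 line means, CD133+ in red and CD133- in blue, with a bar at the mean of the 2 arrays. HNRNPA1 and HNRNPA3 are highest in SNU-216, HNRNPU and SFRS12IP1 in SNU-601, and HNRPA1L-2 is lowest in SNU-601.

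Splicing genes outside the rule were counted from 4 lists with 163 genes, of whose rows 157 were tested. Some genes had a row under both an older and a newer spelling, such as SNRP70 and SNRNP70, and each row was counted. In KATO-III 57 (36.3%) were higher and 31 (19.7%) lower, in SNU-216 43 (27.4%) and 26 (16.6%), and in SNU-601 12 (7.64%) and 26 (16.6%). All tested genes stood at 18.7% and 20.6%, 14.6% and 14%, and 8.59% and 7.78% in the same lines. Of the lists, the LSM and SMN complex genes, which carry and assemble Sm-like rings, had 14 of 25 higher (56.0%) and 2 lower (8.0%) in KATO-III.

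Markers of proliferation were counted as well, and their shares differed by line. Of 16, 11 were higher and 0 lower in CD133+ cells of KATO-III (68.8% and none, median change 0.41), 4 and 1 in SNU-216 (25.0% and 6.25%, median 0.02) and 8 and 0 in SNU-601 (50% and none, median 0.25). The brighter genes stood at 24% and 27.4%, 20.1% and 20%, and 12% and 10.4% in the same lines. The summed intensity of the proliferation markers was 84612 to 84637 on the CD133+ and 64248 to 65677 on the CD133- arrays of KATO-III, 93553 to 97395 and 90078 to 90279.8 in SNU-216, and 69227 to 70110.2 and 56519 to 57734 in SNU-601. The part of the proliferation markers in the changes was not tested. CDC2 and TOP2A among them are on the study's own list of genes higher in CD133+ cells. That list was chosen on these arrays, so the direction of CDC2 and TOP2A is not independent evidence.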

How the data were processed

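Gene expression of 12 arrays (2 for each of 6 sorted populations) was analysed from the value table. The authors deposited quantile-normalized intensities from Illumina HT-12 v3 BeadChips, 1 row per gene symbol, on a linear scale with a background subtracted, which is seen in the values (from -56.4 to 23393.5, with 32.1% at or below 0). BeadStudio is named in the submitters' processing notes. How probes were combined and the background estimated is not given in the sources used here, and 34595 of 34688 rows held a value.

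Values under a floor of 32.7, which is the absolute value of the 1st percentile over the table, were raised to it, since a background subtraction scatters by about that much, and log2 was taken, which understates the changes of dim genes. Genes that passed the floor on 2 or more arrays (20147, 58.2%) were fitted with limma 3.58.1 in R 4.3.3 with a mean-variance trend and Benjamini-Hochberg adjustment over all of them at 0.05. A model with a mean for each population (6 residual degrees of freedom) gave the change within each line, the interaction and the differences between lines, and a model with line as a block (8 degrees of freedom) the change over all lines. The labels' replicate numbers were not used as pairs. Deviations of same-numbered arrays correlated at 0.026 in KATO-III, 0.013 in SNU-216 and -0.006 in SNU-601. That shows no shared deviation over the tested genes, but cannot tell whether same-numbered arrays were prepared together, which is not stated. The number of arrays limits the precision. On simulated data of 5000 genes, 200 were changed by 1 on the log2 scale. With every line changed, 98.5% were called over all lines beside 13 false ones. With KATO-III alone changed, 89.5% were called in that line beside 11 false ones, and 75.5% by the interaction beside 7. How many would be called over all lines when the change differs between lines was not tested.

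Rows were matched to current names, and promoters taken, from RefSeq tables (GRCh38.p14). Proteins were not used here. Counts and figures were made in Python 3.11.15 with numpy 2.4.6, pandas 2.3.3 and matplotlib 3.10.9. The genes, lists and tests were chosen with earlier results of these data known. Named in full were, in each line, the 5 called rows with the largest change and no overlap between fractions, rows called over all lines with 1 sign in every line (at most 8) or called with 1 sign in all 3 lines, the 5 with the smallest interaction p among those called in opposite directions, the 5 with the largest difference between lines, and SFRS1, SFRS2, SFRS3, SF3B1, HNRNPA1, HNRNPA2B1, HNRNPC, HNRNPU, SNRPB and SNRPD1. Other rows were named after their values were seen. Alternatives were other floors, filters and normalizations, no trend, a replicate block, population means, a random block, the signal-to-noise ratio and leaving out each array. The count with 1 row per gene and the background of genes above the floor on all arrays were added after seeing the data.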

Additional observations from a re-analysis of the deposited data

Results flagged for a closer look

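The change between CD133+ and CD133- cells differed between the 3 lines for 44 of the 73 tested rows by limma's F-test of line by fraction, adjusted over all tested genes, and 21 of them are among the rows that the naming rule picked. That rule took some rows by the p of this same test and others by a large change in a single line. Passing the test was thus partly set by the choice of rows. Of these 21, the U2 and SF3 proteins were SNRPA1 (0.0167), SF3A2 (0.000674), SF3B1 (0.000301) and SF3B3 (0.0195), each with its adjusted p. Among SR and SR-related proteins it passed for SFRS1 (0.0102), SFRS3 (0.000218), SFRS8 (0.000100) and SFRS14 (7.92e-05). Among hnRNP H, F and L rows it passed for HNRNPF (0.000145), HNRNPH2 (0.00022), HNRNPH3 (0.000319), HNRPH1 (7.92e-05), HNRNPL (1.71e-05) and HNRPLL (0.0046), and among the A, B and C hnRNPs for HNRNPA1 (0.000337), HNRNPA3 (0.00678), HNRNPC (0.0129), HNRPC (0.0215) and HNRPA2B1 (0.0151). The pseudogene rows HNRPA1L-2 (0.0319) and HNRPA1P4 (0.000358) passed as well. Of all tested genes, 44.4% passed this test, and of the brighter genes 58.5%, near the 60.3% of the 73 rows.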

How the results depend on the processing

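The limits are the 2 arrays per population, of unstated origin, probes that are not given, and dim rows whose values near the floor have no order. Over all lines, the 2 rows called higher became 0 with a replicate block, 0 with each population's arrays averaged first, 0 with the population as a random block, 1 by the signal-to-noise ratio and 1 to 2 when each array was left out, and the 0 called lower became 1 with a floor of 100. In SNU-601, the 5 rows called higher became 2 to 6 and the 8 called lower 4 to 8 when each array was left out, and the latter 4 with no filter on dim genes. The other counts stayed within 1.5 times: 23 to 31 higher and 11 to 15 lower in KATO-III, 12 to 17 and 4 to 6 in SNU-216, 32 to 47 for the interaction and 60 to 67 between the lines. The replicate block treats same-numbered arrays of a line as pairs, and whether they were is not stated. It gave a limma adjusted p of 0.134 for SNRPD1 and 0.157 for SNRPD3 over all lines. It left 37 rows in the interaction in place of 44. It also ended the SNU-601 calls of HNRNPH2 (-0.31) and SF3B3 (0.41), as did no trend and no filter; HNRNPH2 lost its call with arrays centred on their medians too (-0.28), and SFRS3 in SNU-601 with no filter (-0.34). The log2 change of HNRPC over all lines, 0.04 and not called, ran from -0.0845 to 0.26 when each array was left out, and was below 0 without either KATO-III replicate 1, either SNU-216 CD133+ replicate or SNU-216 CD133- replicate 2. The median change in SNU-601, -0.01, became 0.03 with arrays centred on their medians, where that of all tested genes was 0.03 too. Of the values of named rows, 865 kept direction and side of the threshold, 45 lost their call and 5 turned. The causes were not tested.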

Other observations

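Of the 157 tested rows of other splicing genes, limma called 6 over all lines, 4 higher (2.55%) and 2 lower (1.27%) in CD133+ cells. That was no larger a share than the 2.62% and 2.11% of all tested genes. None of the 6 calls held with population means (limma adjusted p = 0.796 for each) or with the population as a random block (0.177 to 0.263). Within the lines, LSM3, a subunit of the Sm-like ring on U6 RNA, had mean intensities of 13297 against 8882 in KATO-III, 10125 against 8892 in SNU-216 and 10298 against 8584 in SNU-601, CD133+ first, and was called higher in each line. TNPO3, the import receptor that carries SR proteins into the nucleus, had means of 1272 against 1565 in KATO-III, 1112 against 1754 in SNU-216 and 938 against 1125 in SNU-601, and was called lower in each line. The other calls over all lines were PPIH, SNRNP27 and MATR3, higher, and KHSRP, lower. PPIH, MATR3 and KHSRP were not called in SNU-601 (limma adjusted p = 0.137, 0.752 and 0.153), nor SNRNP27 in SNU-216 (0.146).

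By list, the spliceosome core had 38.5% of 65 tested rows higher and 18.5% lower in KATO-III, 26.2% and 12.3% in SNU-216, and 7.69% and 15.4% in SNU-601. The LSM and SMN genes (25 tested) had 24.0% and 20.0% in SNU-216 and 8.0% and 16% in SNU-601. The splicing kinases, SR-related and exon junction genes (30 tested) had 20.0% and 26.7% in KATO-III, 40.0% and 13.3% in SNU-216 and none and 23.3% in SNU-601. The other hnRNP-like and tissue regulators (37 tested) had 32.4% and 24.3%, 21.6% and 24.3%, and 13.5% and 13.5%. Beside these, the shares of all tested genes were 18.7% and 20.6% in KATO-III, 14.6% and 14% in SNU-216, and 8.59% and 7.78% in SNU-601, and those of the genes above the floor on all arrays 24% and 27.4%, 20.1% and 20%, and 12% and 10.4%.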
